A study of Mus musculus with 6 samples.

Results

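The genes described here are 39 listed mouse genes of glycolysis and of the response to low oxygen, listed by gene symbol. They comprise 24 glycolytic genes (glucose uptake, glycolytic enzymes, and the fate of pyruvate and lactate), 5 genes of the hypoxia-inducible factors (HIF) and their regulators, and 10 other targets of those factors. A gene was represented by its brightest probe set among those annotated with that single symbol, by the mean of all 6 arrays. Of the 39 genes, 35 had such a probe set and 33 had one bright enough to be tested, out of 12320 genes with a tested single-symbol probe set. Gpi1, Gapdh, Eno1 and Bnip3l had no single-symbol probe set, and P4ha2 and Adm lay below the signal filter.

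The arrays compared KSL cells, the c-Kit+ Sca-1+ Lin- gate of C57BL/6J mouse bone marrow in which blood stem and progenitor cells are found. In the mD1R group (3 arrays) the cells were grown for 7 days with mD1R on a layer of human endothelial cells (HUVEC). The medium was serum-free and held m5GF, a mix of mouse cytokines of 5 types. In the PBS group (3 arrays) the culture was the same, with PBS in place of mD1R. After culture the KSL cells were sorted again, and their total RNA was hybridised to 3′ expression arrays. The labels do not spell out mD1R, which is, from knowledge of the study, a recombinant protein with the receptor-binding domain of the Notch ligand Dll1 and a motif that brings it to endothelium. Replicates are labelled biological, without the number of mice behind each array, so the p-values measure the spread among these arrays. An array of sorted cells gives one average, in which fewer cells of a kind and less RNA per cell cannot be told apart.

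Glycolysis splits glucose into pyruvate in the cytosol, and lactate dehydrogenase turns pyruvate into lactate when it is not passed to the mitochondria. When oxygen is plentiful, prolyl hydroxylases of the Egln family mark the alpha subunits of HIF, which the Vhl ubiquitin ligase complex then sends for degradation. When oxygen is low the subunits persist and switch on genes of glucose uptake, glycolysis, vessel growth, acid handling and collagen modification. Blood stem cells are known for a reliance on glycolysis and for a marrow setting poor in oxygen.

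With mD1R, 4 of the 33 tested genes rose and 0 fell. P4ha1, Car9 and Higd1a belong to the other hypoxia targets, and Pfkp is a glycolytic enzyme. In the same fit 12.6% of all 27022 tested probe sets passed the threshold, an adjusted p of 0.05 in limma, and 6.13% passed as higher and 6.5% as lower. The share of the 33 genes that rose was 12.1%. Among the 7 tested other hypoxia targets 3 rose, with a median log2 difference of 1.47, and among the 21 tested glycolytic genes 1 rose, with a median of 0.32. The median over all tested probe sets was 0.00. Whether the gene groups differ from each other was not tested. These counts come from a fit that ignores the replicate numbers the groups share. With the replicate number as a block, 13 of the 33 genes passed (11 higher, 2 lower), with 4619 of all probe sets. To the 4 genes that rose, the block added Aldoc, Slc2a1, Bnip3, Hif1a, Ankrd37, Pfkl and Tpi1 as higher, and Pfkfb4 and Slc2a3 as lower. The labels do not say that a number marks a shared day or batch.

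HIF binds short DNA words, ACGTG or GCGTG read on either strand, and these letters were looked up in the promoters of the genes. Those of the 4 genes that rose are shown, and that of Egln3, whose signal varied most among the mD1R arrays. Each line holds the 250 bases before the start site, 5′ to 3′ along the gene's strand, from RefSeq promoters on GRCm38.p6, with capitals marking the words.
P4ha1, chr10:59323046-59323295, plus strand: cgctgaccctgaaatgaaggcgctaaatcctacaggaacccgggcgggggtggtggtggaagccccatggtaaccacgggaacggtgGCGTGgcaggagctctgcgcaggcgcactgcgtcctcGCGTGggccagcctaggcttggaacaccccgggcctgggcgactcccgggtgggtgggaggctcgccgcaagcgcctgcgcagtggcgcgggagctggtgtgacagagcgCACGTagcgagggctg
Car9, chr4:43506776-43507025, plus strand: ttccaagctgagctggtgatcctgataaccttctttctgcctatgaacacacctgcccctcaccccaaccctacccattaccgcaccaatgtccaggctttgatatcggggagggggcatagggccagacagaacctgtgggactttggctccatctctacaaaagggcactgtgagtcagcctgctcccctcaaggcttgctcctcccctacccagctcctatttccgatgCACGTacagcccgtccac
Higd1a, chr9:121857797-121858046, minus strand: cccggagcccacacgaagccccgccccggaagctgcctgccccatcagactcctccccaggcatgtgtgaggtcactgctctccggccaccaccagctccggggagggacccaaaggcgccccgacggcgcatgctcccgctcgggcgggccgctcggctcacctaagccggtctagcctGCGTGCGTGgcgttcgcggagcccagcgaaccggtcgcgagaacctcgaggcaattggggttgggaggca
Pfkp, chr13:6648772-6649021, minus strand: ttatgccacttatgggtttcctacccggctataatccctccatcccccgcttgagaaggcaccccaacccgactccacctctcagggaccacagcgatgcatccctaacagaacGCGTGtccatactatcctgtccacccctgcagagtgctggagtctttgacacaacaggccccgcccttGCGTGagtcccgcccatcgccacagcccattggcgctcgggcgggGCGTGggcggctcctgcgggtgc
Egln3, chr12:54203875-54204124, minus strand: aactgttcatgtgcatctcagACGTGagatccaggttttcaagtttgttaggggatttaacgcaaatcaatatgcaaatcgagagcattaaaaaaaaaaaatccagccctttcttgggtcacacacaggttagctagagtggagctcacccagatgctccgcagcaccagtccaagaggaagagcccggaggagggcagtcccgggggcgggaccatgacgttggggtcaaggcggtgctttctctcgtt

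The P4ha1 sequence held 3 of the words, at 163, 126 and 16 bases before the start site. Pfkp also held 3, at 136, 68 and 23 bases before it. Higd1a held 2 that run into each other, at 70 and 66 bases before it. Car9 held 1, at 18 bases before it, and Egln3 held 1, at 229 bases before it. The word ACGTG is also part of the E-box CACGTG, which other factors bind. In windows of 300 bases, from 250 before to 50 after the start site, 40 of the 49 windows of the listed genes held a word (81.6%), against 43.8% of all 32851 windows. The windows of the listed genes also had more G and C, with a median of 62.3% against 52.7% over all windows. By group the share was 80.6% of 36 windows for the glycolytic genes, 75% of 4 for the HIF genes and 88.9% of 9 for the other targets. Most of the listed genes thus held a word, whether or not they passed. The windows covered 35 of the genes, of which 32 had a word, and the other genes (Bnip3l, Ndrg1, Slc2a3 and Epas1) are not shown. A match describes the letters and does not show binding.

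**Figure D1:**
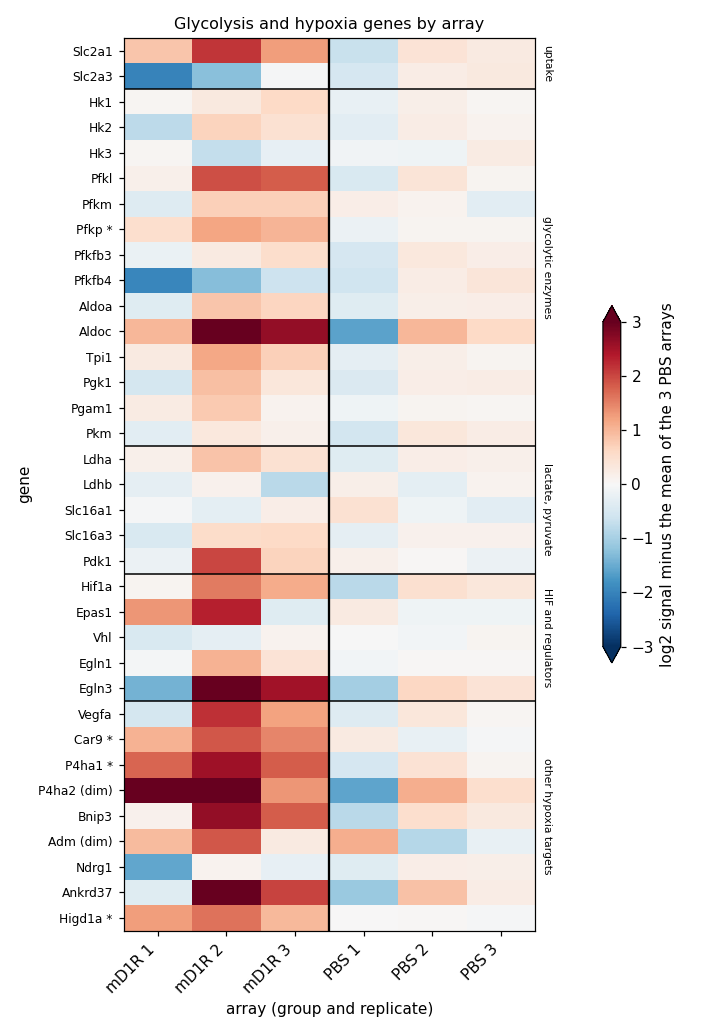
Log2 signal of 35 genes (rows) on each of the 6 arrays (columns), as the difference from the mean of the 3 PBS arrays. The colour scale runs from -3 to 3 (log2), an asterisk marks the 4 genes past the threshold, and "dim" marks the 2 genes below the filter. The other hypoxia targets are mostly red in the mD1R columns, most deeply in mD1R replicate 2, while the glycolytic enzymes are mixed.

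Among the other hypoxia targets, P4ha1 encodes the catalytic alpha subunit of prolyl hydroxylase, which modifies collagen. It had log2 signals of 10.95, 11.75 and 11.01 in the mD1R arrays, against 8.69, 9.63 and 9.29 in the PBS arrays. Every mD1R array lay above every PBS array. The difference was 2.03 ± 0.31 (SE; adjusted p = 0.0118), a 4.10-fold higher signal. The second P4ha1 probe set gave 1.47 and passed (adjusted p = 0.0156). Leaving out PBS replicate 3 gave an adjusted p of 0.0677.

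Higd1a encodes a small mitochondrial protein induced by hypoxia that acts on the respiratory chain. Its log2 signals were 12.25, 12.62 and 11.98 with mD1R and 11.01, 11.03 and 10.95 with PBS. The PBS arrays lay within a narrow band that no mD1R array reached. The difference was 1.28 ± 0.20 (adjusted p = 0.012), or 2.43-fold. Another tested probe set gave 0.60 and did not pass (adjusted p = 0.433), and one below the filter gave -1.07, so its probe sets disagree. With the mean of its tested probe sets the difference was 0.94 (adjusted p = 0.0565), and leaving out PBS replicate 2 or PBS replicate 3 gave an adjusted p of 0.052 or 0.0679.

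Car9 encodes carbonic anhydrase IX, a membrane enzyme that handles acid outside the cell and is a widely used marker of hypoxia. It had log2 signals of 8.22, 9.04 and 8.64 with mD1R, against 7.44, 6.94 and 7.13 with PBS, again without overlap. It rose by 1.47 ± 0.29 (adjusted p = 0.0196), or 2.76-fold. Leaving out mD1R replicate 2, PBS replicate 2 or PBS replicate 3 gave an adjusted p of 0.0679, 0.0798 or 0.0868.

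The other tested targets did not pass, and 3 of them were spread widely over the mD1R arrays. Bnip3, a mitochondrial protein of cell death and mitophagy, had log2 signals of 11.13, 13.65 and 12.82 with mD1R, against 10.20, 11.52 and 11.30 with PBS. Ankrd37, an ankyrin repeat protein, had 7.18, 10.82 and 9.56 with mD1R, against 6.43, 8.43 and 7.77 with PBS. Vegfa, the growth factor of blood vessels, had 9.34, 12.07 and 11.09 with mD1R, against 9.49, 10.22 and 9.93 with PBS. In all 3 genes mD1R replicates 2 and 3 lay above every PBS array and replicate 1 lay among or below them. The differences were 1.53 ± 0.62 for Bnip3 (adjusted p = 0.144), 1.64 ± 0.88 for Ankrd37 (adjusted p = 0.256) and 0.96 ± 0.60 for Vegfa (adjusted p = 0.333). A second, dimmer Vegfa probe set gave 0.21 (adjusted p = 0.871). Ndrg1, a stress-responsive gene linked to differentiation, had 9.31, 10.97 and 10.61 with mD1R, against 10.49, 11.05 and 11.03 with PBS, a difference of -0.56 ± 0.41 (adjusted p = 0.402). It was the only one of the 7 tested targets with a difference below 0.

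The members that could not be tested are given by value. P4ha2, the paralogue of P4ha1, had log2 signals of 6.82, 7.56 and 5.16 with mD1R, against 2.25, 4.92 and 4.32 with PBS, which do not overlap but are dim. Adm, the vasodilator peptide adrenomedullin, had 5.31, 6.23 and 4.64 with mD1R, against 5.45, 3.50 and 4.14 with PBS, which overlap. Bnip3l, a mitophagy receptor, was covered by 3 probe sets annotated also to its pseudogene, whose differences were 0.25, 0.07 and 0.15.

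**Figure D2:**
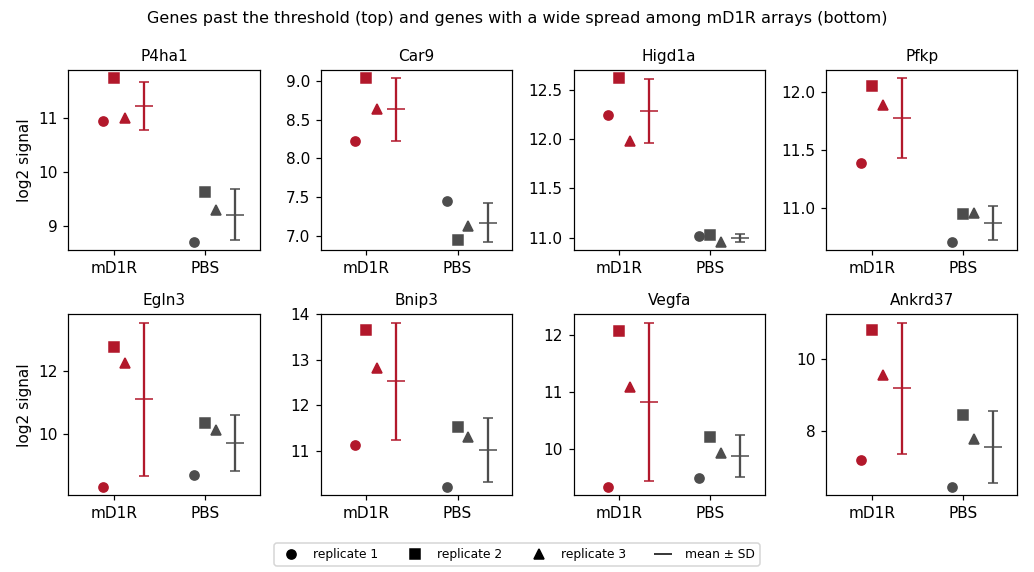
Log2 signal (vertical axis, scale set per panel) of 8 genes on the 3 mD1R and the 3 PBS arrays; symbols mark replicates, and bars show the mean ± SD. In the top row (P4ha1, Car9, Higd1a and Pfkp) the groups do not overlap, and in the bottom row (Egln3, Bnip3, Vegfa and Ankrd37) mD1R replicate 1 lies far below mD1R replicates 2 and 3.

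The HIF genes are Hif1a and Epas1, the oxygen-regulated alpha subunits, and Vhl, Egln1 and Egln3, which mark or remove them. None of the 5 passed in limma without a replicate block, and 0 had an unadjusted p under 0.05. With the replicate number as a block, 1 of them passed in limma, Hif1a (adjusted p = 0.0123). Hif1a had log2 signals of 12.49, 13.96 and 13.52 with mD1R, against 11.59, 12.89 and 12.74 with PBS, a difference of 0.92 ± 0.45 (adjusted p = 0.214). Epas1 had 7.61, 8.61 and 5.91 with mD1R, against 6.55, 6.14 and 6.14 with PBS, so mD1R replicate 3 was the lowest of all arrays and the difference was 1.10 ± 0.62 (adjusted p = 0.28). HIF is controlled largely through the stability of these proteins, which an array does not measure.

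Egln3, a prolyl hydroxylase that is itself a HIF target, had 8.32, 12.78 and 12.25 with mD1R, against 8.71, 10.34 and 10.13 with PBS. Replicate 2 of mD1R lay 4.46 above replicate 1 of mD1R, which was the lowest array of all, and the difference of 1.39 ± 1.07 did not pass (adjusted p = 0.426). Egln1, the main oxygen-sensing hydroxylase, had 9.70, 10.79 and 10.18 with mD1R, against 9.69, 9.80 and 9.80 with PBS, and differed by 0.46 ± 0.28 (adjusted p = 0.306). Vhl had 9.33, 9.53 and 9.90 with mD1R, against 9.80, 9.72 and 9.88 with PBS, and differed by -0.21 ± 0.20 (adjusted p = 0.532).

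Glucose uptake is carried by the transporters Slc2a1 (GLUT1) and Slc2a3 (GLUT3), and their differences had opposite signs. Slc2a1 had log2 signals of 12.04, 13.35 and 12.45 with mD1R, against 10.53, 11.61 and 11.48 with PBS. The groups did not overlap, and the difference of 1.41 ± 0.39 lay just outside the threshold (adjusted p = 0.0538). The dimmest Slc2a1 probe set gave 1.69 and passed (adjusted p = 0.0387). Slc2a3 had 11.91, 12.68 and 13.90 with mD1R, against 13.42, 14.14 and 14.21 with PBS. Replicate 3 of mD1R lay within the PBS range and the others below it, a difference of -1.10 ± 0.47 (adjusted p = 0.164). A dimmer Slc2a3 probe set gave -1.56 and passed as lower (adjusted p = 0.0373).

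Of the 14 tested glycolytic enzymes 1 passed and 12 had a difference above 0, as did 13583 of all 27022 tested probe sets. Pfkp encodes a subunit of phosphofructokinase, the enzyme of the committed step. It had log2 signals of 11.39, 12.05 and 11.89 with mD1R, against 10.70, 10.95 and 10.96 with PBS. The groups did not overlap, and Pfkp rose by 0.90 ± 0.21 (adjusted p = 0.0328), or 1.87-fold. Its other probe sets gave 0.72 (adjusted p = 0.18) and 0.55 (adjusted p = 0.319). Leaving out mD1R replicate 2 or a PBS array gave an adjusted p between 0.093 and 0.113, and it was 0.0664 with no variance trend.

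The other phosphofructokinase subunits did not pass. Pfkl had 8.67, 10.45 and 10.33 with mD1R, against 8.05, 8.91 and 8.60 with PBS, with mD1R replicate 1 inside the PBS range (1.30 ± 0.48, adjusted p = 0.114). Its dimmest probe set gave -0.32. Pfkm had 8.06, 9.15 and 9.15 with mD1R, against 8.64, 8.55 and 8.13 with PBS (0.34 ± 0.33, adjusted p = 0.533). The bifunctional enzymes Pfkfb3 and Pfkfb4 set the level of the sugar bisphosphate that activates phosphofructokinase. Pfkfb4 had 9.74, 10.42 and 11.08 with mD1R, against 11.11, 11.91 and 12.07 with PBS. It was the only tested gene of the list whose mD1R arrays all lay below its PBS arrays, by a narrow gap, and the difference of -1.28 ± 0.38 did not pass (adjusted p = 0.0619). Pfkfb3 had 10.48, 10.97 and 11.21 with mD1R, against 10.18, 11.00 and 10.90 with PBS (0.20 ± 0.28, adjusted p = 0.69).

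The hexokinases trap glucose in the cell as its phosphate, and none of them passed. Hk1 had 11.15, 11.38 and 11.69 with mD1R, against 10.85, 11.25 and 11.15 with PBS (0.32 ± 0.20, adjusted p = 0.334). Hk2, the inducible isoform, had 11.18, 12.63 and 12.42 with mD1R, against 11.65, 12.19 and 12.08 with PBS (0.10 ± 0.37, adjusted p = 0.882). Hk3, the myeloid isoform, had 12.93, 12.15 and 12.62 with mD1R, against 12.77, 12.75 and 13.11 with PBS (-0.31 ± 0.23, adjusted p = 0.418). In each of the 3 genes the groups overlapped.

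The aldolases split the sugar bisphosphate into triose phosphates. Aldoc had log2 signals of 10.19, 12.50 and 11.84 with mD1R, against 7.61, 10.20 and 9.80 with PBS. Its difference of 2.31 ± 0.77 was the largest among the 33 genes and did not pass (adjusted p = 0.087). With the replicate number as a block Aldoc passed in limma (adjusted p = 0.00559). In both groups replicate 1 lay more than 1 below the other arrays of its own group. Aldoa had 13.73, 14.92 and 14.74 with mD1R, against 13.73, 14.26 and 14.28 with PBS (0.37 ± 0.33, adjusted p = 0.488). Tpi1, triose phosphate isomerase, had 13.43, 14.32 and 13.87 with mD1R, against 12.90, 13.33 and 13.25 with PBS, without overlap (0.71 ± 0.25, adjusted p = 0.105).

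The differences of the tested enzymes that act after the triose phosphates were 0.37 or smaller. Pgam1, phosphoglycerate mutase, had 13.41, 13.95 and 13.27 with mD1R, against 13.03, 13.25 and 13.24 with PBS, without overlap (0.37 ± 0.21, adjusted p = 0.289). Pgk1, phosphoglycerate kinase, had 13.43, 14.86 and 14.30 with mD1R, against 13.54, 14.16 and 14.19 with PBS (0.23 ± 0.36, adjusted p = 0.717). Pkm, the pyruvate kinase of most tissues, had 12.43, 13.07 and 12.90 with mD1R, against 12.19, 13.08 and 12.98 with PBS (0.05 ± 0.28, adjusted p = 0.924). These last 2 genes overlapped between the groups. Gapdh was read through its 3 control probe sets, which differed by 0.06, -0.00 and 0.07 between the groups, and no test was run on them. Its probe sets annotated with several symbols are also given by value only. They differed by 0.03, -0.07 and 0.50, the last being the dimmest. Gpi1, the phosphoglucose isomerase, and Eno1, an enolase, have no value here.

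Pyruvate becomes lactate through Ldha and Ldhb, leaves the cell as lactate through Slc16a1 (MCT1) and Slc16a3 (MCT4), or is kept from the mitochondria by Pdk1, a kinase that shuts off pyruvate dehydrogenase. None of these 5 genes passed. Ldha had 13.88, 14.58 and 14.19 with mD1R, against 13.37, 13.93 and 13.88 with PBS (0.49 ± 0.24, adjusted p = 0.218). Pdk1 had 9.51, 11.68 and 10.35 with mD1R, against 9.83, 9.71 and 9.49 with PBS, with mD1R replicate 2 far above the rest (0.84 ± 0.48, adjusted p = 0.286). Slc16a1 had 11.11, 10.84 and 11.35 with mD1R, against 11.59, 11.02 and 10.82 with PBS (-0.04 ± 0.24, adjusted p = 0.928). For these genes the groups overlapped, as they did for Slc16a3, which had 7.31, 8.32 and 8.38 with mD1R, against 7.52, 7.90 and 7.91 with PBS (0.23 ± 0.33, adjusted p = 0.693).

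Ldhb depended on the probe set. The brightest had 9.18, 9.59 and 8.64 with mD1R, against 9.64, 9.16 and 9.57 with PBS (-0.32 ± 0.28, adjusted p = 0.488). The next in brightness gave -1.14 and passed as lower (adjusted p = 0.0277), the one after it gave -0.74 (adjusted p = 0.176), and the dimmest gave -1.75 and passed as lower (adjusted p = 0.0111). All 4 were below 0, and which of them tracks the transcript was not tested.

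**Figure D3:**
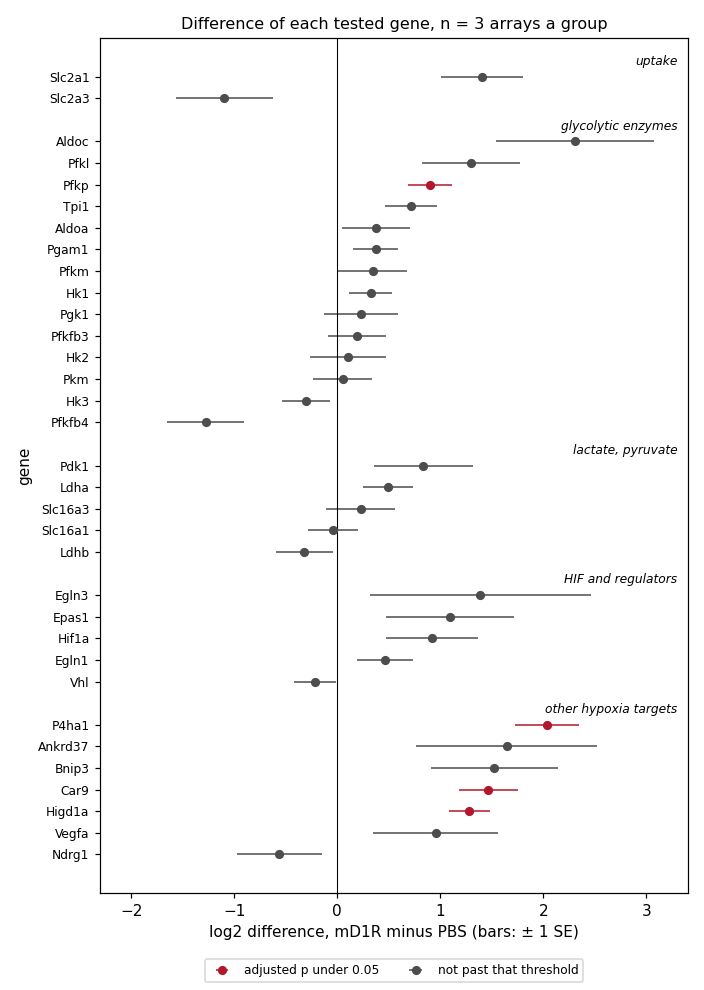
Log2 difference, mD1R minus PBS, of the 33 tested genes, grouped by role; bars show ± 1 SE with n = 3 arrays a group. Red marks the 4 genes past adjusted p 0.05, and Aldoc at 2.31 and Egln3 at 1.39 have wide bars.

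Over the 33 genes, the mD1R arrays all lay above the PBS arrays for 7 (P4ha1, Higd1a, Car9, Pfkp, Slc2a1, Tpi1 and Pgam1) and all below for 1 (Pfkfb4). That is 21.2% higher, against 17.3% of all tested probe sets, and 1 gene lower, against 18.6%. The difference was above 0 for 26 of the 33 genes, and for 13583 of the 27022 tested probe sets. These signs are not independent, since many of the genes ranked the arrays alike. Averaged over its 7 tested genes, the signal of the other hypoxia targets was 9.77, 11.56 and 10.82 in the mD1R arrays, against 9.11, 9.83 and 9.63 in the PBS arrays. Averaged over 21 genes, the glycolytic signal was 11.20, 12.09 and 11.93 with mD1R, against 11.09, 11.58 and 11.53 with PBS. The 5 HIF genes averaged 9.49, 11.14 and 10.35 with mD1R, against 9.27, 9.78 and 9.74 with PBS. In each of these 3 sets mD1R replicate 1 was the lowest mD1R array, and it lay inside the PBS range.

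**Figure D4:**
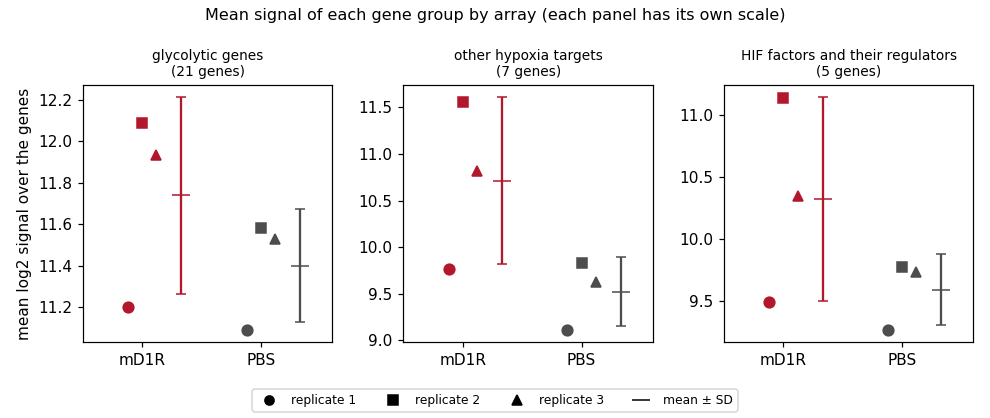
Mean log2 signal on each array over the 21 tested glycolytic genes, the 7 other hypoxia targets and the 5 HIF genes, with the mD1R arrays to the left of the PBS arrays and bars for the mean ± SD (n = 3). The differences of the group means were 0.34, 1.19 and 0.73, and replicate 1 was the lowest array of each group in all 3 panels.

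Many of the genes ranked the arrays alike. Replicate 1 was the lowest array in both groups for 23 of the 33 genes (69.7%), against 15% of all tested probe sets. Replicate 2 of mD1R was the highest of the 6 arrays for 21 of them (63.6%), against 16.3%. Without mD1R replicate 1, 11 genes rose, against 3.95% of all probe sets called higher in that fit. These were P4ha1, Car9, Higd1a and Pfkp with Slc2a1 (1.69), Tpi1 (0.94), Pfkl (1.88), Egln3 (2.79), Vegfa (1.70), Bnip3 (2.23) and Ankrd37 (2.64). Without PBS replicate 3, 0 of the 33 genes and 0 of all probe sets passed in limma, while 8 genes and 5853 probe sets had an unadjusted p under 0.05.

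**Figure D5:**
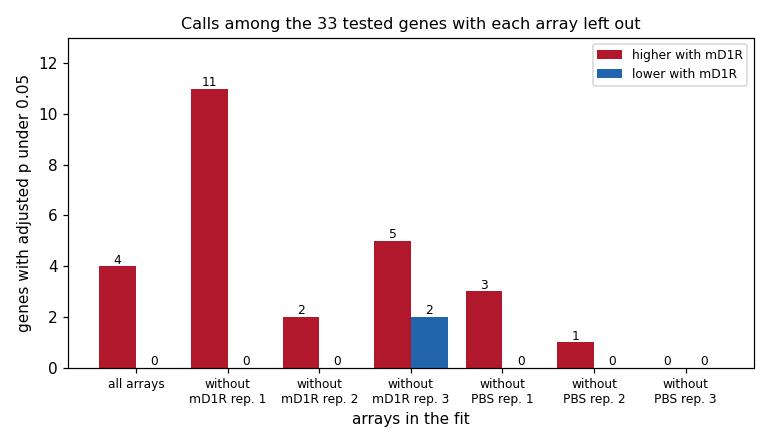
Number of the 33 tested genes past adjusted p 0.05 with all arrays and with each array left out (horizontal axis), higher with mD1R in red and lower in blue. The count was 4 with all arrays, 11 without mD1R replicate 1 and 0 without PBS replicate 3.

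Without mD1R replicate 2, 2 of the genes rose, against 1.26% of all probe sets. Without mD1R replicate 3, 5 rose and 2 fell, against 9.34% of all probe sets higher and 11.2% lower. Without PBS replicate 1, 3 rose, against 2.69%, and without PBS replicate 2, 1 rose, against 1.21%. The hybridisation control BioB, set against the other spiked controls, split the arrays into 2 sets. mD1R replicates 1 and 2 with PBS replicate 1 lay between -3.29 and -3.17 (log2), and mD1R replicate 3 with PBS replicates 2 and 3 between -5.77 and -5.69. Within these sets the difference was 2.66 and 1.55 for P4ha1, 1.42 and 0.99 for Higd1a, 1.19 and 1.61 for Car9, and 1.01 and 0.93 for Pfkp. The median difference was 1.42 and 1.41 for the other hypoxia targets, 0.56 and 0.43 for the glycolytic genes, and 1.56 and 0.38 for the HIF genes. Over all tested probe sets it was -0.11 and 0.07. Each such value rests on a single array of one group. With the set as a block, 6 of the 33 genes passed in limma (5 higher, 1 lower). Of all 27022 probe sets 3452 passed (1770 higher, 1682 lower). All 4 genes that rose still passed, at adjusted p between 0.0132 and 0.0294. Aldoc also passed as higher (2.79, adjusted p = 0.0373) and Pfkfb4 as lower (-0.96, adjusted p = 0.0331).

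Wider lists of the pathway were read from the same fit, and 5 of their 79 tested genes rose (6.33%) and 2 fell (2.53%), with a median difference of 0.13. The pooled share that rose was near the 6.13% of all probe sets called higher. The pooled share that fell was below the 6.5% called lower. By list, 18.2% of the further hypoxia targets rose, 10% of the further HIF regulators (1 gene), and 0% of each other list. That 1 regulator was Arnt2, whose PBS mean lay below the signal filter and which did not pass with no filter. Whether the lists differ was not tested. The genes that passed are given one by one. Of 22 further hypoxia targets 4 rose, with a list median of 0.44. Bhlhe40, a transcriptional repressor, had log2 signals of 12.29, 12.36 and 11.85 with mD1R, against 10.15, 10.65 and 10.44 with PBS (1.75 ± 0.21, adjusted p = 0.00968). Hmox1, which degrades haem, had 12.86, 13.12 and 12.44 with mD1R, against 11.16, 11.76 and 11.50 with PBS (1.33 ± 0.24, adjusted p = 0.0159). Both were free of overlap. Mif, the macrophage migration inhibitory factor, had 13.64, 14.53 and 13.93 with mD1R, against 12.83, 12.90 and 12.59 with PBS (1.26 ± 0.25, adjusted p = 0.0196). Vldlr, a lipoprotein receptor, had 7.49, 9.61 and 9.78 with mD1R, against 6.89, 6.95 and 6.63 with PBS (2.14 ± 0.57, adjusted p = 0.0459). Both also showed no overlap, with Vldlr the most variable among the mD1R arrays. Hmox1 responds to haem and oxidative stress as well as to HIF.

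Of 10 further regulators of HIF 1 rose, Arnt2, a partner of the alpha subunits, at 6.29, 6.82 and 6.50 with mD1R, against 4.40, 4.92 and 5.17 with PBS (1.71 ± 0.38, adjusted p = 0.0284). Its PBS mean of 4.83 lay below the filter of 5.27, so it was tested only through its mD1R signals, and the size of the difference is imprecise. Of 16 further glycolytic isoforms and side enzymes 1 fell, Adpgk, which phosphorylates glucose with ADP. It had 7.61, 7.51 and 10.01 with mD1R, against 11.08, 11.74 and 11.86 with PBS (-3.19 ± 0.62, adjusted p = 0.0197). Of 7 genes of the pentose phosphate pathway 1 fell and the median difference was -0.52. This was Rpe, the ribulose phosphate epimerase, at 10.49, 10.57 and 10.68 with mD1R, against 11.47, 11.37 and 11.65 with PBS (-0.92 ± 0.17, adjusted p = 0.0165). In all 3 genes the groups did not overlap.

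None of 9 genes of pyruvate entry into mitochondria and none of 15 genes of the tricarboxylic acid cycle passed, and 0 of either list had an unadjusted p under 0.05. The smallest p in the first list belonged to Pdk3, a pyruvate dehydrogenase kinase (-0.71 ± 0.33, adjusted p = 0.191), and Pdp1, the opposing phosphatase (1.25 ± 0.58, adjusted p = 0.194). In the cycle they belonged to Idh3g, an isocitrate dehydrogenase subunit (-0.39 ± 0.17, adjusted p = 0.17), and Fh1, fumarase (-0.46 ± 0.21, adjusted p = 0.186). The cycle's median difference was 0.06. Without PBS replicate 3 none of these 79 genes passed. Bhlhe40 passed with each of the other arrays left out. Hmox1 did not pass without mD1R replicate 2 (adjusted p = 0.0613) or PBS replicate 1 (0.0505), Rpe without mD1R replicate 2 (0.0607) or PBS replicate 2 (0.0608), and Adpgk and Mif without mD1R replicate 2 (0.0734 and 0.0553) or any one PBS array (at most 0.087 and 0.0944). Arnt2 passed only when the array left out was mD1R replicate 3, and Vldlr only when it was mD1R replicate 1. With no filter the adjusted p was 0.0605 for Arnt2 and 0.0544 for Vldlr, and with the mean of its probe sets it was 0.0553 for Rpe. With no variance trend it was 0.0704 for Vldlr.

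Genes of other processes and cell types moved between the groups as well. The counts for these lists stand beside 6.13% of all tested probe sets called higher and 6.5% called lower. All 19 tested mitosis genes fell, with a summed linear signal of 16220 to 31760 in the mD1R arrays against 73000 to 90650 in the PBS arrays (Cdca3 -2.28 and Birc5 -2.20 on the log2 scale, as for the genes below). Of 15 mast cell and basophil markers 11 rose, with sums of 94050 to 135700 with mD1R against 43980 to 48990 with PBS (Cpa3 2.78, Gata2 2.22 and Tpsg1 4.41, the last with a PBS mean of 4.09, below the filter). Of 14 monocyte and macrophage markers 6 rose, with sums of 178900 to 226000 with mD1R against 95360 to 121300 with PBS (Ms4a7 2.15, Ccl9 1.41 and Msr1 2.29). Their part in the differences of the glycolytic and hypoxia genes was not tested. Of 15 neutrophil markers 4 fell, with sums of 58180 to 371700 with mD1R against 313700 to 399800 with PBS, lowest on mD1R replicate 1 (Fcnb -4.97, Pglyrp1 -4.76 and Itgb2l -5.13).

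Of 12 lymphoid markers 7 fell and 1 rose, by 2.24. Sums were 7313 to 19150 in the mD1R arrays against 8648 to 15560 in the PBS arrays, highest on mD1R replicate 1. The markers of smallest p fell (Ebf1 -2.92, Dntt -3.42 and Cd3d -3.73, the last with an mD1R mean of 5.05, below the filter). Rag1 was listed at 0 on an array. Of 7 erythroid markers 1 fell, Slc4a1 (-5.72, with an mD1R mean of 3.49, below the filter). Sums were 3856 to 6120 with mD1R against 3768 to 8965 with PBS. The differences were above 0 for 3 of the 7 and below 0 for 4. Ermap (-2.08) and Gata1 (1.06, with all mD1R arrays above the PBS arrays) did not pass. Of 6 endothelial markers 1 rose, Pecam1 (1.41), with sums of 2206 to 5213 with mD1R against 1085 to 2053 with PBS. The differences were above 0 for 4 of the 6 and below 0 for 2, and Vwf (2.11) and Plvap (-1.45) did not pass. Kit, which defines the gate, had 11.37, 11.13 and 9.58 with mD1R, against 9.97, 8.85 and 9.21 with PBS (1.35 ± 0.49, adjusted p = 0.109), and Ly6a, which encodes Sca-1, was not analysed here. Array medians lay between 6.07 and 6.42 (log2). The 3′ minus 5′ signal of the Gapdh control was -0.41 to -0.26 with mD1R and -0.48 to -0.33 with PBS, and that of the actin control 0.37 to 0.46 with mD1R and 0.20 to 0.27 with PBS. Their part was not tested either.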

How the data were processed

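Total RNA of 6 samples (3 mD1R, 3 PBS) was measured on 3′ expression arrays. The authors deposited log2 signals for 45101 probe sets, made with MAS5 per the submitters' processing notes, version not given in the sources used here. On the linear scale each array had a 2% trimmed mean of 500, and 239 to 422 values per array were listed at log2 0. Detection calls were not used, and MAS5's mismatch subtraction makes low values noisy. The 64 control probe sets were left out, 34945 others had 1 symbol in the platform annotation, and 932 had several and were not named; updating through RefSeq changed 0 symbols.

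The log2 values were compared as deposited with limma 3.58.1 in R 4.3.3 (lmFit, eBayes with a variance trend, two-sided), over the 27022 probe sets whose mean reached the 40th percentile, 5.27. Benjamini-Hochberg adjustment ran over all of them, with a threshold of 0.05. Values after ± are limma's standard errors unless called SD, n = 3 a group, and the number of arrays limits the precision (median SE 0.31). Signals of different probe sets are not comparable as levels. The procedure was tested on simulated data first. All 39 genes are named; of each wider list, up to 4 genes past the threshold or otherwise the 2 of smallest p, and of each marker list up to 3. The genes and lists were chosen with earlier results of these data known. Alternatives changed the scaling, pseudocount, filter, variance model, weights of the arrays, blocks, threshold or probe sets, or left out each array. The split of the arrays by hybridisation control was first seen in these data.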

Additional observations from a re-analysis of the deposited data

How the results depend on the processing

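Over 18 alternative settings for each tested gene of the list, 535 gene and setting combinations kept the direction and the side of the threshold, 31 became past it, 16 no longer passed and 11 changed sign. Centring the arrays, quantile normalization, adding 32 to the linear signal, no filter, robust variance and the hybridisation set as a block left the 4 calls in place. Slc2a1 passed in 7 of the 18 settings. At a threshold of 0.01, 0 of the 33 genes, 0 glycolytic genes, 0 other targets, 1 wider pathway gene and 108 probe sets passed. With array weights 9 of the 33 genes passed (7 higher, 2 lower), beside 6508 of the 27022 probe sets (3112 higher, 3396 lower). Of these 9 genes 6 were glycolytic, and 14 wider pathway genes passed. With no variance trend 0 glycolytic genes and 2213 probe sets passed. The glycolytic count was 2 with quantile normalization, with 32 added and with a filter at the 60th percentile, and 3 with the hybridisation set as a block and with the mean of a gene's probe sets. Leaving out 1 array moved the counts between 0 and 5554 probe sets, 0 and 11 of the 33 genes, 0 and 4 glycolytic genes, 0 and 6 other targets, 0 and 1 HIF genes, and 0 and 15 wider pathway genes; the upper ends came without mD1R replicate 1 or 3. Every count was 0 without PBS replicate 3, and the glycolytic and HIF counts were also 0 without mD1R replicate 2, PBS replicate 1 or PBS replicate 2. Fewer arrays also lower the precision.

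Sign changes came only in genes that did not pass, apart from the dim Higd1a probe set (-1.07). With array weights Pkm was at -0.084 and Slc16a1 at 0.030. On another probe set Hk1 was at -0.039, Pgk1 at -0.051 and Pfkl at -0.32. Leaving out 1 array moved Pkm between -0.23 and 0.24, Slc16a1 between -0.20 and 0.18, Hk2 between -0.17 and 0.55, Pgk1 between -0.10 and 0.61 and Pfkfb3 between -0.061 and 0.40. The cause was not tested.

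The groups share replicate numbers, and the labels do not say that a number marks a shared day or batch. Over all tested probe sets, deviations from the group means correlated at 0.31, 0.028 and 0.13 between same-numbered arrays, and not every array correlated best with its own number. Over the 33 genes alone they correlated at 0.67, 0.54 and 0.42, against -0.73 to 0.44 between arrays of unlike number. With the replicate block, 4619 probe sets (2314 higher, 2305 lower) and 13 of the 33 genes (11 higher, 2 lower) passed, with 7 glycolytic genes, 5 other targets, 1 HIF gene and 8 wider pathway genes. To the 4 genes that rose it added, by adjusted p, Aldoc (0.00559), Slc2a1 (0.00836), Bnip3 (0.0109), Hif1a (0.0123), Ankrd37 (0.0213), Pfkl (0.022) and Tpi1 (0.0299) as higher, and Pfkfb4 (0.00856) and Slc2a3 (0.0313) as lower. Detection calls were not used, so the dim genes P4ha2 and Adm are limited by signal over background.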
